A study of Homo sapiens with 16 samples.

Results

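The genes described here centre on the making of S-adenosylmethionine (SAM), the methyl donor of the cell, and the splitting of its product S-adenosylhomocysteine (SAH). They are MAT2A, MAT2B, METTL16, AHCY, AHCYL1 and AHCYL2, chosen as a list of 6 symbols and matched to the Ensembl identifiers of both count tables. Of these, METTL16 acts on MAT2A RNA, and AHCYL1 and AHCYL2 resemble AHCY in sequence. All 6 were found among 60676 gene identifiers, and all 6 passed the filter on low counts, which 21569 genes passed. RNA was sequenced in 16 libraries of 2 human melanoma cell lines, with 8 libraries each. A101D is labelled methionine dependent, and MeWo is described as methionine independent, meaning that homocysteine can replace methionine in its medium. Per the growth protocol, cells were grown in a methionine-containing control medium or in one where homocysteine took its place, both with dialyzed serum, cystine, glutamine and pyruvate. No label ties a library to a medium, so the libraries are grouped by line and by replicate number, with replicates 1 to 4 and replicates 5 to 8 kept apart (4 libraries in each of these groups). This division was proposed with earlier results of these data known. Its p-values therefore say how large a difference was beside the spread within 4 libraries, and they are no independent test that the libraries divide there. The labels do not say that the libraries came from separate cultures, so the spread may be technical. Each behaviour towards methionine is represented by 1 line, so a difference between the lines cannot be told apart from other differences between A101D and MeWo.

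Methionine adenosyltransferase joins methionine and ATP into SAM. In most tissues the catalytic subunit is MAT2A and the regulatory subunit is MAT2B, while the liver uses MAT1A. METTL16 is an RNA methyltransferase that binds hairpins in the 3′ UTR of MAT2A RNA, and this binding is known to couple splicing and stability of MAT2A RNA to the supply of SAM. Each methylation turns SAM into SAH, which inhibits methyltransferases, and AHCY splits SAH into adenosine and homocysteine. AHCYL1 and AHCYL2 resemble AHCY in sequence and are known mainly as partners of ion channels and transporters.

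The libraries held 28910881 to 38961862 counts, and a member had between 585 and 24286 counts in a library. Levels are CPM, counts scaled to a common library size after correction by TMM factors (from the trimmed mean of M-values), which ran from 0.955 to 1.06. Mitochondrial genes took 1.28% to 2.33% of the counts. The pigment cell markers SOX10 and MITF were present in both lines, whereas TYR and TYRP1 were nearly absent in A101D (1.52 ± 0.229 and 0.908 ± 0.597 CPM, SD, n = 8). DCT (1492 ± 218 against 506 ± 40.5 CPM) and S100B (608 ± 80 against 132 ± 4.98 CPM) were higher in A101D than in MeWo. The other pigment cell markers listed had higher means in MeWo. Summed immune markers stayed at 0.297 to 2.95 CPM and summed keratinocyte markers at 19.4 to 42.4 CPM. Most of the keratinocyte sum was KRT10 (36.7 ± 2.69 CPM in A101D and 21.4 ± 1.85 CPM in MeWo). The 4 fibroblast markers summed to 581 to 1038 CPM in A101D, nearly all of it COL1A2, and to 6.23 to 7.62 CPM in MeWo. PDGFRB was also higher in A101D (7.57 ± 1.36 against 0.307 ± 0.0955 CPM in MeWo). COL1A1 (0.78 ± 0.206 against 1.97 ± 0.344 CPM) and DCN (0.0583 ± 0.0815 against 4.19 ± 0.43 CPM) were lower in A101D. In bulk libraries, fewer cells with a transcript and less of it per cell cannot be told apart. No pair of libraries within a group agreed within sampling noise (lowest chi-square, divided by its degrees of freedom, 1.97).

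MAT2A (ENSG00000168906, GRCh38 chromosome 2, 85539165 to 85545280, plus strand) differed most of the 6 genes between the replicate sets. In A101D it had 133, 140, 140 and 136 CPM in replicates 1 to 4, and 616, 615, 612 and 602 CPM in replicates 5 to 8. In MeWo it had 183, 176, 189 and 194 CPM in replicates 1 to 4, and 651, 677, 667 and 624 CPM in replicates 5 to 8. In each line, each library of replicates 5 to 8 stood above each library of replicates 1 to 4. The level was 4.46-fold higher in A101D (log2 fold change 2.16 ± 0.03 SE, adjusted p = 6.41e-37, limma) and 3.53-fold higher in MeWo (1.82 ± 0.03, adjusted p = 1.3e-34, limma). In MeWo, 14 of the 21569 genes tested, MAT2A among them, had a log2 fold change at least this high, and in A101D 454 did. The difference of these changes was itself past the threshold, with a smaller rise in MeWo (log2 difference -0.34 ± 0.05, adjusted p = 4.85e-08, limma).

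**Figure D1:**
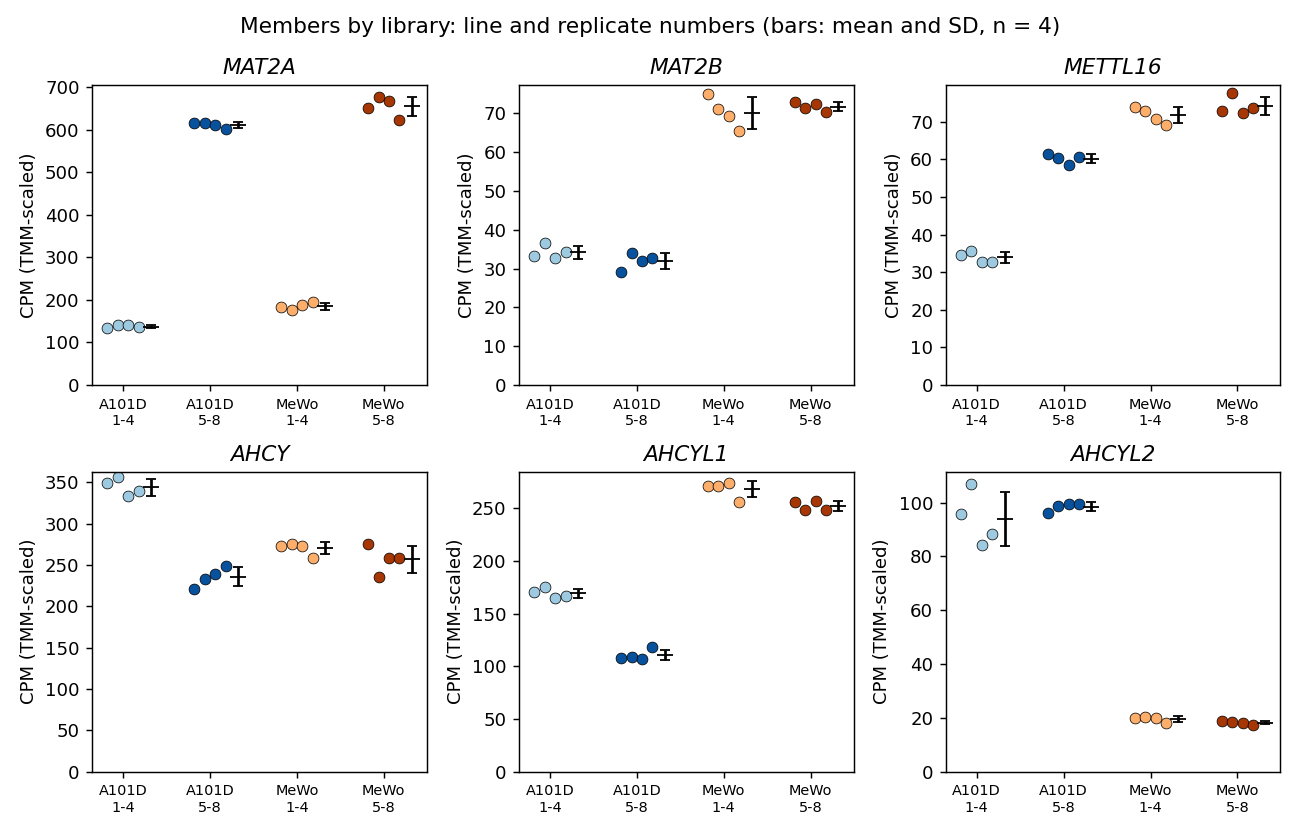
CPM of the 6 genes in each library (points), by cell line and replicate numbers, with the mean and SD of each group of 4 libraries beside the points. MAT2A lies at 133 to 194 CPM in replicates 1 to 4 and at 602 to 677 CPM in replicates 5 to 8 of both lines, while METTL16, AHCY and AHCYL1 separate the sets of A101D.

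The letters that METTL16 recognises in these hairpins are shown here because the 3′ UTR of MAT2A holds them repeatedly. On the transcript strand, and written as DNA, 5 matches to TACAGAGAA and 1 match to TACAGAAAA were found in the 1508 bases after the stop codon of MAT2A-201 (GENCODE v29, GRCh38). The 6 sites follow in order from the stop codon, with the matched letters in capitals.
site 1, chr2:85543803-85543829: ggcgtaggcTACAGAGAAgccttcaag
site 2, chr2:85544590-85544616: gtgatgtcaTACAGAGAAgtcacaggg
site 3, chr2:85544775-85544801: tggtgtagcTACAGAGAAaccagcttc
site 4, chr2:85544890-85544916: tggcgtaagTACAGAGAAgccatcacc
site 5, chr2:85545005-85545031: aaggtgtccTACAGAAAAaccttgggt
site 6, chr2:85545113-85545139: ctggtgtggTACAGAGAAgccagcttg
The matches begin 40, 827, 1012, 1127, 1242 and 1350 bases after the stop codon. No match to either form was found in the 3′ UTRs searched of MAT2B, METTL16, AHCY, AHCYL1 or AHCYL2. Here and in the counts that follow, only the complete coding transcript with the longest 3′ UTR was searched for each gene. Of 19066 genes with an annotated 3′ UTR, 4.39% held at least 1 match and 0.247% held at least 2, and MAT2A was the single gene with 6. Among the 2556 genes whose 3′ UTR is within 20% of the length of that of MAT2A, 4.15% held at least 1 match. At least 2 were held by 0.0391%, which is 1 gene, MAT2A itself. The letters searched are those of the MAT2A hairpins, so the place of MAT2A in these counts is no independent result. A match is a description of the letters, not a measurement of binding.

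**Figure D2:**
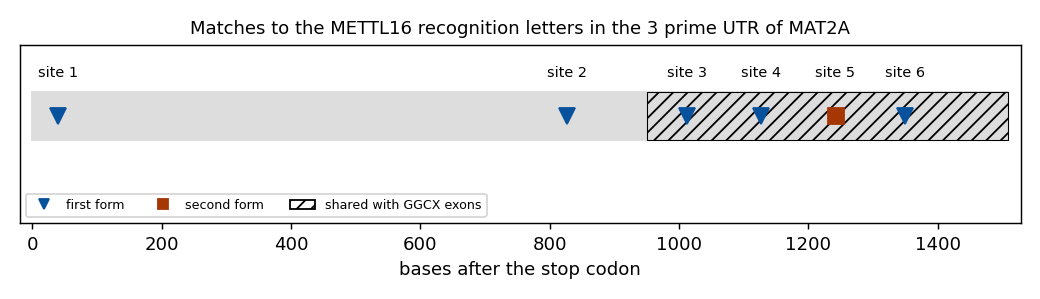
Positions of the 6 matches along the 3′ UTR of MAT2A (grey bar, 1508 bases), in bases after the stop codon, with triangles for the first form and a square for the second. The hatched stretch of 558 bases, which holds 4 of the 6 matches, is also exon of GGCX on the opposite strand.

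Counts per gene limit what can be said of MAT2A. The annotation gives it 6 transcripts, of which 3 retain an intron, and the counts do not separate spliced from intron-retaining RNA. GGCX, which encodes the gamma-glutamyl carboxylase, overlaps 558 bases (12.4%) of the MAT2A exons on the opposite strand. The library kit marks strand, per the labels, but the strand setting of the counting is not given in the sources used here. GGCX had 104 ± 2.52 and 126 ± 1.52 CPM in replicates 1 to 4 and 5 to 8 of A101D, and 63.4 ± 2.51 and 68.6 ± 0.668 CPM in MeWo (SD, n = 4). Its log2 fold changes were 0.27 ± 0.03 in A101D and 0.11 ± 0.04 in MeWo (adjusted p = 2.6e-09 and 0.0328, limma). The MeWo call was lost with median-of-ratios factors (0.09, adjusted p = 0.121), with TMM factors over all genes (0.10, adjusted p = 0.116), without a low-count filter (0.11, adjusted p = 0.0598) and without any 1 of MeWo replicates 1, 2, 3, 4, 6, 7 and 8 (0.07 to 0.12). The GGCX levels were below those of MAT2A in each group. The pseudogenes named after AHCY and MAT2A (7 symbols) had at most 7 counts in a library.

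METTL16 (ENSG00000127804, chromosome 17, 2405562 to 2511891, minus strand) rose in A101D and did not pass the threshold in MeWo. In A101D it had 34.5, 35.7, 32.7 and 32.6 CPM in replicates 1 to 4, and 61.4, 60.3, 58.5 and 60.5 CPM in replicates 5 to 8. These sets did not overlap, and the level was 1.78-fold higher in replicates 5 to 8 (log2 fold change 0.83 ± 0.04, adjusted p = 2.75e-20, limma). In MeWo it had 74.0, 72.9, 70.7 and 69.2 CPM in replicates 1 to 4, and 72.9, 77.5, 72.3 and 73.7 CPM in replicates 5 to 8, which overlapped (0.05 ± 0.04, adjusted p = 0.477, limma). The change differed between the lines (log2 difference -0.78 ± 0.06, adjusted p = 5.04e-15, limma).

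MAT2B (ENSG00000038274, chromosome 5, 163503114 to 163519336, plus strand) did not pass the threshold between the sets of either line. In A101D it had 33.2, 36.6, 32.8 and 34.2 CPM in replicates 1 to 4, and 29.2, 33.9, 31.9 and 32.7 CPM in replicates 5 to 8. In MeWo it had 75.0, 71.0, 69.2 and 65.3 CPM in replicates 1 to 4, and 72.9, 71.3, 72.3 and 70.3 CPM in replicates 5 to 8. The sets overlapped in both lines, with log2 fold changes of -0.10 ± 0.05 in A101D and 0.03 ± 0.04 in MeWo (adjusted p = 0.0874 and 0.697, limma). With TMM factors computed over all genes, a setting tried after seeing the data, MAT2B passed in A101D (-0.16, adjusted p = 0.0104, limma), and with total counts only its difference there was 0.00. The difference of the changes did not pass (log2 difference 0.13 ± 0.07, adjusted p = 0.0997, limma), but did with TMM factors over all genes (0.17, adjusted p = 0.0445). Per kb of exon, MAT2A had 4.61 ± 0.212 times the level of MAT2B in replicates 1 to 4 of A101D and 22.1 ± 1.54 times in replicates 5 to 8. In MeWo this ratio was 3.05 ± 0.284 and 10.5 ± 0.332 (SD, n = 4).

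AHCY (ENSG00000101444, chromosome 20, 34280268 to 34311802, minus strand) fell in A101D. There it had 349, 356, 333 and 339 CPM in replicates 1 to 4, and 221, 233, 239 and 249 CPM in replicates 5 to 8, without overlap. The level was 1.46-fold lower in replicates 5 to 8 (log2 fold change -0.55 ± 0.04, adjusted p = 6.31e-16, limma). In MeWo it had 273, 275, 273 and 259 CPM in replicates 1 to 4, and 275, 235, 259 and 258 CPM in replicates 5 to 8, which overlapped (-0.08 ± 0.04, adjusted p = 0.195, limma). Without MeWo replicate 4, the lowest of its set, the MeWo difference passed (-0.12, adjusted p = 0.0325, limma). The change differed between the lines (log2 difference 0.47 ± 0.05, adjusted p = 1.12e-09, limma).

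AHCYL1 (ENSG00000168710, chromosome 1, 109984686 to 110023741, plus strand) also fell in A101D. It had 170, 175, 165 and 167 CPM in replicates 1 to 4 of A101D, and 108, 109, 107 and 118 CPM in replicates 5 to 8. The sets did not overlap, and the level was 1.53-fold lower in replicates 5 to 8 (log2 fold change -0.61 ± 0.03, adjusted p = 9.89e-19, limma). In MeWo it had 271, 271, 274 and 256 CPM in replicates 1 to 4, and 256, 248, 257 and 248 CPM in replicates 5 to 8. These overlapped and missed the threshold narrowly (-0.09 ± 0.03, adjusted p = 0.0568, limma). The MeWo difference passed with median-of-ratios factors (-0.11, adjusted p = 0.0299), with TMM factors over all genes (-0.11, adjusted p = 0.0455), without a low-count filter (-0.09, adjusted p = 0.0145) and without MeWo replicate 4 (-0.13, adjusted p = 0.0026, all limma). The change differed between the lines (log2 difference 0.53 ± 0.05, adjusted p = 2.37e-12, limma).

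AHCYL2 (ENSG00000158467, chromosome 7, 129225023 to 129430211, plus strand) differed little between the sets. In A101D it had 95.6, 107, 84.2 and 88.4 CPM in replicates 1 to 4, and 96.0, 98.9, 99.6 and 99.5 CPM in replicates 5 to 8. The first set spanned the second, and the difference did not pass (log2 fold change 0.07 ± 0.05, adjusted p = 0.151, limma). It passed without A101D replicate 2, the highest library (0.14, adjusted p = 0.00254), with upper-quartile factors (0.15, adjusted p = 0.00184) and with total counts only (0.18, adjusted p = 0.00044, all limma). In MeWo it had 19.8, 20.5, 19.9 and 18.2 CPM in replicates 1 to 4, and 18.9, 18.5, 18.3 and 17.4 CPM in replicates 5 to 8, which overlapped (-0.10 ± 0.07, adjusted p = 0.394, limma). The difference of these changes did not pass either (log2 difference -0.18 ± 0.08, adjusted p = 0.0801, limma). The difference passed without A101D replicate 2 (-0.24, adjusted p = 0.00403), without A101D replicate 8 (-0.21, adjusted p = 0.036) and without MeWo replicate 4 (-0.24, adjusted p = 0.0156, all limma). It also passed with median-of-ratios factors (-0.22, adjusted p = 0.0305), upper-quartile factors (-0.24, adjusted p = 0.0127) and total counts only (-0.24, adjusted p = 0.013).

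**Figure D3:**
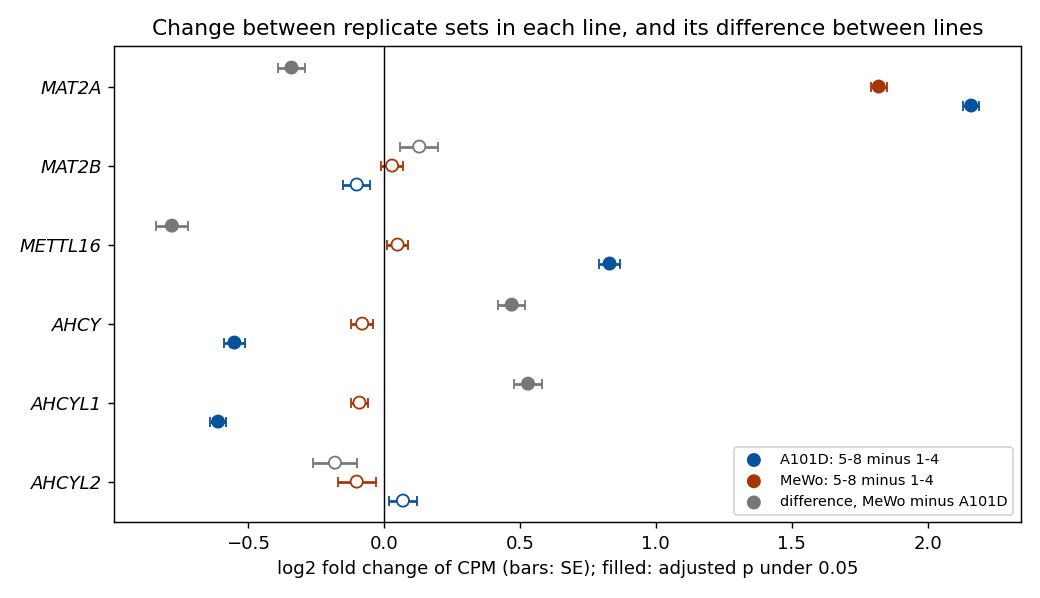
Log2 fold change of CPM between replicates 5 to 8 and 1 to 4 in A101D (blue) and MeWo (brown), and the difference of these changes, MeWo minus A101D (grey), with SE bars and filled points where the adjusted p was under 0.05. MAT2A lies at 2.16 and 1.82, while METTL16, AHCY and AHCYL1 lie away from 0 in A101D at 0.83, -0.55 and -0.61.

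In A101D 2 of the 6 genes rose, 2 fell and 2 did not pass, where 33.2% of all genes tested rose and 32.4% fell. In MeWo 1 of the 6 rose, 0 fell and 5 did not pass, where 6.16% of all genes rose and 7.45% fell. With median-of-ratios factors the MeWo calls over all genes divided into 1012 higher and 2005 lower, with TMM factors over all genes into 990 and 1835, and with total counts only into 2041 and 1037, beside 1329 and 1606 here. The difference of the changes was positive for 2 members and negative for 2, with 25.9% and 23.2% of all genes. The median log2 fold change of the 6 genes was -0.01 in A101D and -0.02 in MeWo, beside 0.01 and 0.00 over all genes tested.

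Between the lines, over all 8 libraries each, AHCYL2 was the member that differed most. It had 96.1 ± 7.08 CPM in A101D and 18.9 ± 1.05 CPM in MeWo (SD, n = 8), 5.08-fold lower in MeWo without overlap (log2 fold change -2.34 ± 0.05, adjusted p = 7.33e-17, limma). MAT2B was 2.15-fold higher in MeWo (33.1 ± 2.10 against 70.9 ± 2.89 CPM, log2 fold change 1.10 ± 0.04, adjusted p = 1.39e-13, limma). AHCYL1 was 1.90-fold higher (140 ± 31.6 against 260 ± 10.5 CPM, log2 fold change 0.93 ± 0.11, adjusted p = 4.73e-07, limma), and METTL16 was 1.61-fold higher (47.0 ± 14.1 against 72.9 ± 2.46 CPM, log2 fold change 0.69 ± 0.14, adjusted p = 0.000296, limma). The lines did not overlap in any of these 4 genes, but the share of all genes without overlap was not computed. MAT2A (log2 fold change 0.26 ± 0.49, adjusted p = 0.627) and AHCY (-0.11 ± 0.10, adjusted p = 0.314, limma) did not pass, and their spread within a line includes the difference between the replicate sets. So 3 members were higher and 1 lower in MeWo, where 37.5% of all genes were higher and 41.0% lower.

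Within replicates 1 to 4, 4 members were higher and 2 lower in MeWo, where 37.1% of all genes were higher and 42.3% lower. Within replicates 5 to 8, 5 were higher and 1 lower, where 40.3% of all genes were higher and 43.9% lower. These comparisons use libraries of the comparisons above, so their values stand side by side here. MAT2A was higher in MeWo by 0.43 ± 0.04 on the log2 scale in replicates 1 to 4 and by 0.10 ± 0.03 in replicates 5 to 8 (adjusted p = 2.32e-14 and 0.00207, limma), and the second difference did not pass with total counts only (0.04, adjusted p = 0.177). METTL16 was higher by 1.08 ± 0.04 and 0.30 ± 0.04 (adjusted p = 8.79e-25 and 2.62e-09, limma). AHCY was lower in MeWo in replicates 1 to 4 (-0.35 ± 0.04, adjusted p = 6.24e-11) and higher in replicates 5 to 8, where the lines overlapped (0.12 ± 0.04, adjusted p = 0.00394, limma). This second call was lost without A101D replicate 5 (0.08, adjusted p = 0.0671) and with total counts only (0.06, adjusted p = 0.0752). AHCYL1 differed by 0.66 ± 0.03 and 1.19 ± 0.03, MAT2B by 1.04 ± 0.05 and 1.17 ± 0.05, and AHCYL2 by -2.26 ± 0.06 and -2.43 ± 0.06 (adjusted p at most 3.72e-21, limma).

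Levels of different genes were compared as CPM per kb of annotated exon. This length merges the exons of all annotated transcripts, including those that retain an intron (3 of 6 for MAT2A and 0 of 6 for AHCYL1). Orders and ratios between genes therefore depend on the annotation. In replicates 1 to 4 of A101D the order was AHCY (88.4 ± 2.61), AHCYL1 (33.1 ± 0.835), MAT2A (30.6 ± 0.781), AHCYL2 (13.7 ± 1.45), MAT2B (6.64 ± 0.329) and METTL16 (3.79 ± 0.166; SD, n = 4). In replicates 5 to 8 MAT2A came first with 136 ± 1.45, before AHCY (60.5 ± 3.02), AHCYL1 (21.6 ± 0.952) and AHCYL2 (14.4 ± 0.250), and METTL16 (6.74 ± 0.138) and MAT2B (6.20 ± 0.385) overlapped. MeWo replicates 1 to 4 had the order AHCY (69.3 ± 1.85), AHCYL1 (52.4 ± 1.55), MAT2A (41.3 ± 1.75), MAT2B (13.6 ± 0.787), METTL16 (8.03 ± 0.244) and AHCYL2 (2.86 ± 0.146). In MeWo replicates 5 to 8 MAT2A again came first (146 ± 5.15), before AHCY (65.9 ± 4.21), AHCYL1 (49.3 ± 0.962), MAT2B (13.9 ± 0.223), METTL16 (8.29 ± 0.265) and AHCYL2 (2.66 ± 0.0941). Other neighbours in these orders did not overlap. Among 21102 tested genes with an annotated length, MAT2A ranked 1583 in replicates 1 to 4 and 165 in replicates 5 to 8 of A101D, and 1035 and 199 in MeWo. AHCYL1 had 2.43 ± 0.190 times the level of AHCYL2 in replicates 1 to 4 of A101D, 1.51 ± 0.0624 times in replicates 5 to 8, and 18.4 ± 0.506 and 18.5 ± 0.524 times in MeWo. AHCY made up 65.4 ± 0.465% and 62.7 ± 0.721% of the summed level of AHCY, AHCYL1 and AHCYL2 in the 2 sets of A101D, and 55.6 ± 0.196% and 55.9 ± 1.35% in those of MeWo.

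**Figure D4:**
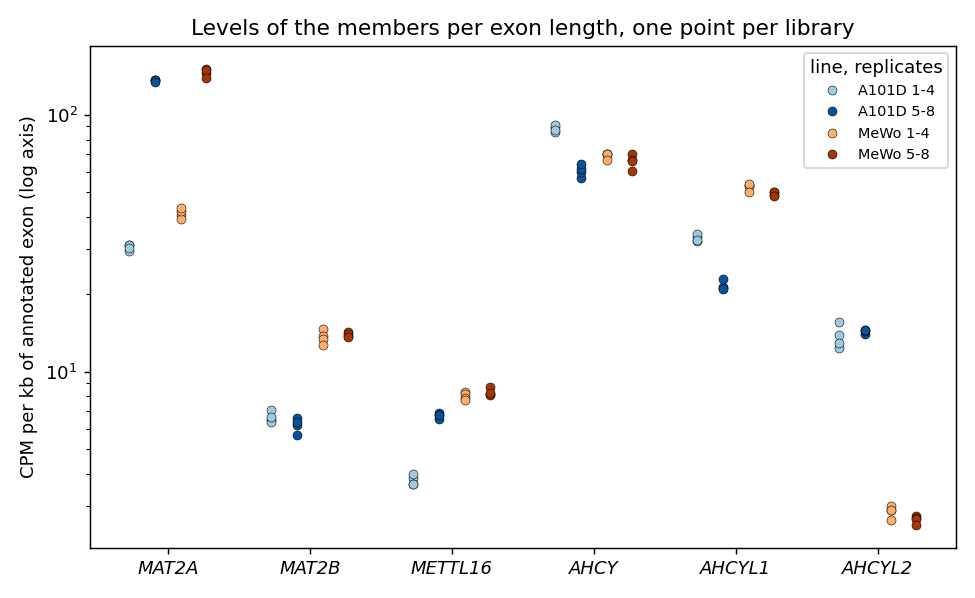
CPM per kb of annotated exon, on a log axis, for the 6 genes in each library (1 point per library), coloured by line and replicate set. MAT2A is above AHCY in replicates 5 to 8 of both lines and below it in replicates 1 to 4, and AHCYL2 is lowest in MeWo.

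The pathway around these genes was described with a list of 26 genes of the methionine cycle, methionine salvage, polyamine synthesis, folate supply and transport, of which 24 were tested. In A101D 14 fell and 5 rose between the sets, where 32.4% of all genes fell and 33.2% rose, with a median log2 fold change of -0.35 beside 0.01 over all genes. CBS, which starts transsulfuration, rose from 6.85 ± 0.782 to 16.8 ± 0.537 CPM (1.31 ± 0.07, adjusted p = 1.16e-18, limma). SMS, spermine synthase, fell from 241 ± 7.74 to 99.6 ± 13.2 CPM (-1.28 ± 0.06, adjusted p = 2.79e-13, limma), and MTHFD1, a folate enzyme, fell from 95.2 ± 6.32 to 41.3 ± 1.19 CPM (-1.20 ± 0.04, adjusted p = 1.92e-25, limma). In MeWo 3 rose and 4 fell, where 6.16% of all genes rose and 7.45% fell, with a median of -0.05 beside 0.00, and 8 fell when MeWo replicate 4 was left out. AMD1, which decarboxylates SAM for polyamine synthesis, rose there from 162 ± 5.14 to 227 ± 7.60 CPM (0.48 ± 0.06, adjusted p = 8.78e-06, limma), MMACHC, a cobalamin chaperone, rose by 0.23 ± 0.06 and PEMT, which methylates phosphatidylethanolamine, changed by -0.21 ± 0.05 (adjusted p = 0.00298 and 0.00426, limma). MMACHC did not pass with limma-trend (adjusted p = 0.0661). AMD1 went the other way in A101D, from 403 ± 13.8 to 202 ± 23.7 CPM, and had the largest difference of changes in the list (log2 difference 1.48 ± 0.08, adjusted p = 1.44e-12, limma). SMS (1.24 ± 0.08, adjusted p = 1.52e-10) and SLC3A2, the heavy chain of amino acid exchangers (-1.14 ± 0.05, adjusted p = 4.87e-22, limma), came next. The difference of changes was positive for 12 of the 24 and negative for 5, where it was positive for 25.9% and negative for 23.2% of all genes, with a median of 0.28 beside 0.02.

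Between the lines, 9 of the 24 were higher and 10 lower in MeWo, close to the shares of all genes tested (37.5% and 41.0%), with a median log2 fold change of -0.01 beside -0.04. MTAP, which recycles the by-product of polyamine synthesis towards methionine, had 6 counts over the 8 A101D libraries and 76.8 ± 1.62 CPM in MeWo. MAT1A, the liver form of the catalytic subunit, had 10.5 ± 1.99 CPM in A101D and 0.0850 ± 0.0762 CPM in MeWo (log2 fold change -7.02 ± 0.39, adjusted p = 1.71e-11, limma). The hepatocyte markers ALB, APOA1 and BHMT each stayed below 0.1 CPM on average in both lines. MMACHC was higher in MeWo (17.3 ± 1.67 against 2.23 ± 0.200 CPM, log2 fold change 2.95 ± 0.08, adjusted p = 1.59e-15, limma). In replicates 1 to 4, 10 of the 24 were higher and 11 lower, beside 37.1% and 42.3% of all genes (median 0.01 beside -0.05). In replicates 5 to 8, 12 were higher and 11 lower, beside 40.3% and 43.9% of all genes (median 0.11 beside -0.04), and CBS was lower in MeWo by a log2 fold change of -3.19 ± 0.12 (adjusted p = 9.67e-26, limma).

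A list of 9 genes with roles in the processing or m6A marking of RNA, several of them linked to MAT2A RNA, was described in the same way. In A101D 5 rose and 2 fell, where 33.2% of all genes rose and 32.4% fell, with a median of 0.12 beside 0.01. In MeWo 2 rose and 1 fell, where 6.16% of all genes rose and 7.45% fell, with a median of 0.00 beside 0.00. The 2 rises in MeWo became 1 with several other settings and without any 1 of MeWo replicates 1, 2, 3, 4, 6, 7 and 8, and the fall became 2 without replicate 4. YTHDC1, a nuclear reader of m6A, rose in both lines (0.73 ± 0.04 and 0.20 ± 0.04, adjusted p = 1.21e-19 and 0.000287, limma). NUDT21, a subunit of cleavage factor I, fell in both (-0.80 ± 0.04 and -0.14 ± 0.04, adjusted p = 2.21e-21 and 0.00581, limma). These genes were singled out after their values were seen.

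**Figure D5:**
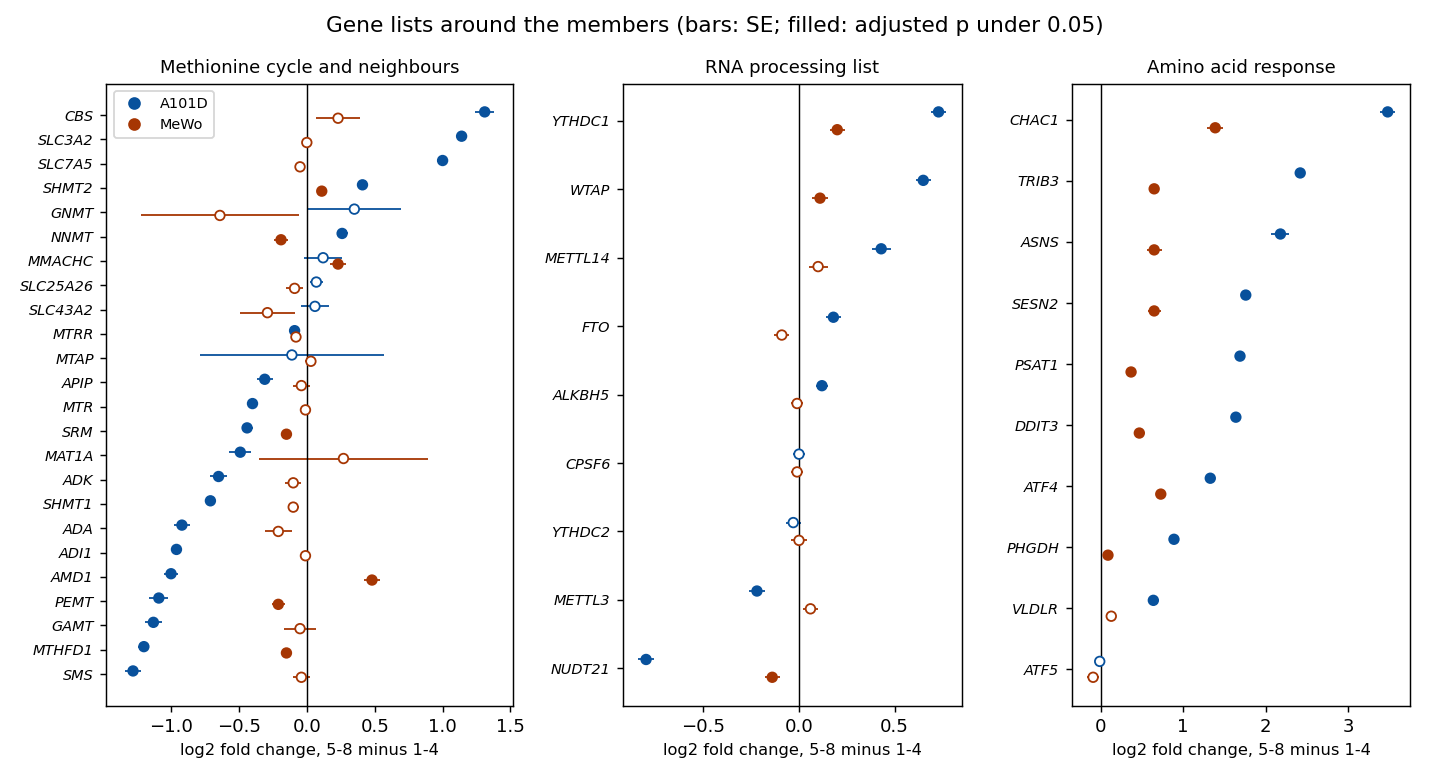
Log2 fold changes between replicates 5 to 8 and 1 to 4 in A101D (blue) and MeWo (brown) for the tested genes of 3 lists, with SE bars and filled points where the adjusted p was under 0.05. In A101D 14 of the 24 pathway genes fell, and 9 of the 10 amino acid response genes rose in A101D and 8 in MeWo. The 8 became 7 without any 1 of the MeWo libraries.

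Other gene groups moved with the replicate sets. All 10 cell cycle genes listed fell in A101D (median -1.94, with 32.4% of all genes falling), where their summed level was 1258 to 1324 CPM in replicates 1 to 4 and 322 to 339 CPM in replicates 5 to 8. In MeWo 5 of these 10 fell and 5 did not pass (median -0.08, with 7.45% of all genes falling), with sums of 2149 to 2258 and 2130 to 2179 CPM, and 2 of the 10 rose there with upper-quartile factors, with total counts only or without a low-count filter. Of 10 genes of the amino acid response, 9 rose in A101D and 8 in MeWo (medians 1.66 and 0.56, with 33.2% and 6.16% of all genes rising), with sums of 706 to 744 and 1993 to 2153 CPM in A101D, and 791 to 813 and 1076 to 1195 CPM in MeWo. The 8 rises in MeWo became 7 with median-of-ratios factors, at a threshold of 0.01 and without any 1 of the MeWo libraries. Summed marker lists also separated the sets of A101D without overlap. In replicates 1 to 4 the fibroblast markers had sums of 923 to 1038 CPM, against 581 to 650 CPM in replicates 5 to 8. In the same order, the pigment cell markers were at 2871 to 3463 and 2497 to 2744 CPM, and the keratinocyte markers at 33.8 to 36.7 and 39.2 to 42.4 CPM. Most of the keratinocyte sum was KRT10 (34.6 ± 1.31 and 38.9 ± 1.74 CPM, SD, n = 4). Nearly all of the fibroblast sum was COL1A2 (956 ± 49.4 and 596 ± 31.8 CPM). PDGFRB also had a lower mean in replicates 5 to 8, while COL1A1 and DCN had higher ones. Of the pigment cell markers, DCT had 1651 ± 198 and 1333 ± 63.1 CPM. PMEL, TYR and TYRP1 had higher means in replicates 5 to 8, and the other pigment cell markers lower ones. The share of mitochondrial counts was 1.71% to 1.92% and 1.93% to 2.33% in these sets. In MeWo the sets overlapped in the fibroblast, pigment cell and keratinocyte sums and in the mitochondrial share. The part of these groups and measures in the changes of MAT2A, METTL16, AHCY and AHCYL1 was not tested.

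The genes with the most similar profiles were sought among 10132 tested genes with a symbol and a mean of at least 10 CPM, by the root-mean-square distance of log2 CPM centred on each gene's mean over the 16 libraries. For MAT2A the nearest were TRIB3 (0.448), CEBPB (0.509) and, farther still, DDIT3. These distances are large, since TRIB3 had 40.0 ± 1.96 and 214 ± 12.6 CPM in the sets of A101D but 74.0 ± 4.25 and 116 ± 9.09 CPM in those of MeWo (SD, n = 4). For METTL16 they were TRPS1 (0.0535), FYN (0.0536) and ZNF37A (0.066), and for AHCYL1 they were MRPS27 (0.041), DOCK1 (0.0455) and NCOA2 (0.0475). For MAT2B they were CCNB1IP1 (0.0494), GGH (0.0515) and DIAPH2 (0.0541), and for AHCYL2 ACP5 (0.0873), NIPAL1 (0.0887) and HIVEP3 (0.0888). AHCY spanned 0.69 on the log2 scale, below the span of 1 set for this search. The 16 libraries fall into 4 groups, so nearness mostly reflects like steps between these groups.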

How the data were processed

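The 16 libraries were prepared from total RNA with a kit that marks strand, per the labels' protocols. Raw whole-number counts per Ensembl gene were deposited by the authors, in a separate table for each line. The submitters' processing notes name Trimmomatic 0.39-1, STAR 2.7.1a, featureCounts 2.0.0 and GRCh38. Which annotation release and which strand option were used is not given in the sources used here. Identifier and count share a cell and were split. Symbols were matched for 60357 of 60676 identifiers and gene models (GENCODE v29) for 58503.

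Genes reaching 0.298 CPM (10 counts at median depth) in 4 or more libraries, with a summed count of 15 or more, were tested. TMM factors (trims 30% and 5%) were computed on these genes, a choice made after a first look at results with factors over all genes, which are given as an alternative. Tests used limma 3.58.1 (R 4.3.3), voom weighting and robust moderation. One model held the line, the other a mean per line and replicate set. Benjamini-Hochberg adjustment ran over all genes tested, with a threshold of 0.05. The step was tested on simulated data, in which far fewer genes changed than were called here and the lines were otherwise alike. That test does not cover scaling or calls where many genes differ. The members and lists were chosen with earlier results of these data known. Named genes are the members, at most 3 pathway genes per comparison (largest absolute change past the threshold), and the 3 nearest profiles of members spanning over 1 on the log2 scale, plus GGCX (for its overlap), YTHDC1 and NUDT21, which were added outside this rule. Alternatives were other scalings, filters, limma-trend, a threshold of 0.01, the replicate number as a block, single-line fits and leaving out each library. Figures were drawn with matplotlib 3.10.9.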

Additional observations from a re-analysis of the deposited data

Results flagged for a closer look

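The change between replicates 5 to 8 and 1 to 4 differed between A101D and MeWo in 4 of the 6 genes by the test of the difference itself (limma), where 25.9% of all genes tested had a positive and 23.2% a negative difference past the threshold. The log2 difference, MeWo minus A101D, was -0.34 for MAT2A, -0.78 for METTL16, 0.47 for AHCY and 0.53 for AHCYL1.

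Single libraries stood far from the others of their group for AHCY. MeWo replicate 4 had 259 CPM, with the other 3 libraries of replicates 1 to 4 at 273 to 275 CPM (gap over range 0.867, above Dixon's critical value). MeWo replicate 6 had 235 CPM, with the other 7 MeWo libraries at 258 to 275 CPM (gap over range 0.572, also above it). These are 2 of 36 groups checked, and chance flags about 1 in 20 of independent groups. The groups of whole lines hold the same libraries as the replicate sets, so the 36 are not independent and this rate is only a guide.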

How the results depend on the processing

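Of 324 member values recomputed with other settings, 309 kept their direction and side of the threshold, 12 newly passed it, 2 no longer did and 1 reversed. Leaving out each library in turn gave 384 more values, of which 376 kept both, 6 newly passed, 1 no longer did and 1 reversed. MAT2B reversed in A101D with total counts only (0.00), and in MeWo without replicate 4 (range -0.03 to 0.06 when leaving out each library), and the cause was not tested. The count of MeWo genes called fell from 2935 to 1597 at a threshold of 0.01, and other counts of genes stayed within 1.5 times. Total counts shifted the median of all genes in A101D by 0.102. The replicate numbers did not pair the libraries (correlation of same-numbered deviations -0.017 to 0.052, with 4 of 8 numbers best matched to their own). With the replicate block, MAT2A differed between the lines (0.26, adjusted p = 0.00304, limma). AHCYL2 passed for the difference of changes (-0.18, adjusted p = 0.0338, limma), and no other member's call changed. In the comparison of the lines, the block also takes out the step between the replicate sets. The SE of MAT2A was 0.06 with the block and 0.49 without it. Set comparisons within a line could not be fitted with the block. edgeR and DESeq2 were not run, since the deposited columns join identifier and count and were not declared as counts. The split values used with limma were whole-number counts. The lowest member counts, from 585, were those of AHCYL2 in MeWo.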
